A study of Sus scrofa with 2 samples.

Results

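The miR-15/16 family was followed in small RNA libraries of pig (Sus scrofa) oocytes through its 5 listed members, miR-15a, miR-15b, miR-16, miR-195 and miR-497. They were 5 of the 181 miRNA entries to which reads were matched. A read was given to a member when it was 18 to 26 nt long, held nt 2 to 18 of the conserved mature 5p form without mismatch and began within 2 nt of its 5' end. The rule used no read counts. It found 1028 reads of 22 distinct sequences in the knockdown library and 1110 reads of 22 distinct sequences in the control library.

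One library came from oocytes in which Dicer had been knocked down by siRNA at the germinal vesicle stage, and which were then matured in vitro for 42 h. The other came from control oocytes at metaphase II after 42 h of maturation in vitro. The labels do not say whether the controls received an siRNA, nor how many oocytes went into each library. The libraries held 11982925 reads (knockdown) and 11836160 reads (control). With 1 library per group no test between groups was possible, and each difference below is between these libraries and not between the conditions. Intervals are given at 95% and reflect counting error alone, with each read taken as an independent count. PCR copies of 1 molecule cannot be recognised without molecular identifiers, and where they were counted the intervals are too narrow. Dicer's own transcript, and the mRNAs that define an oocyte, are not measured by small RNA libraries.

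miRNAs are cut from hairpins by Drosha and then Dicer, and they pair with messenger RNAs through the seed, nt 2 to 8. All members of the miR-15/16 family share this seed, and the family is best known for lowering the levels of cyclins and of the survival factor BCL2. Loss of the human genes for miR-15a and miR-16 is frequent in chronic lymphocytic leukaemia. In mouse oocytes the activity of miRNAs is known to be weak.

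The sequences below are the most abundant full-length read of each member in the deposited tables, shown so that the common seed (in capitals) and the differing 3' parts can be compared. They are given 5' to 3' with T for U.
miR-16: tAGCAGCAcgtaaatattggcg
miR-195: tAGCAGCAcagaaatattggc
miR-15a: tAGCAGCAcataatggtttgtg
miR-15b: tAGCAGCAcatcatggtttaca
miR-497: cAGCAGCAcactgtggtttgt

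Over nt 2 to 18 the members fell into a miR-16 type and a miR-15 type. miR-16 and miR-195 shared 15 of these 17 bases, with G10A and T11G from miR-16 to miR-195, counted from nt 1 of the mature form. miR-15a and miR-15b shared 16 and were separated by A12C alone. miR-497 shared 14 with each of miR-15a and miR-15b, but 10 with miR-16 and 11 with miR-195, its neighbour in the genome. In the RefSeq table of the pig assembly Sscrofa11.1, MIR195 and MIR497 are adjacent genes, MIR15A lies next to MIR16-2, and MIR15B next to MIR16-1. The last pair lies within SMC4, a gene for a condensin subunit. Both miR-16 genes make the same mature 5p form, so their reads cannot be told apart.

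miR-16 made up nearly all of the family in both libraries. It had 927 reads in the knockdown library and 1057 in the control library, or 77.4 RPM (reads per 1000000 reads of the library; exact Poisson interval 72.5 to 82.5) and 89.3 RPM (84.0 to 94.9). The ratio of knockdown to control was 0.866 (exact conditional interval 0.792 to 0.947). miR-16 was thus lower in the knockdown library by far less than 2-fold, and by more than counting error if reads are independent. Among the listed miRNAs with any read it ranked 27 of 141 in the knockdown library and 22 of 134 in the control library.

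miR-497, the least miR-16-like member, was higher in the knockdown library. It had 60 knockdown reads and 22 control reads, or 5.01 RPM (3.82 to 6.45) and 1.86 RPM (1.16 to 2.81), a ratio of 2.69 (1.63 to 4.61). Per 1000 reads of miR-16, a measure that does not depend on the library total, there were 64.7 reads of miR-497 in the knockdown library and 20.8 in the control library. The odds ratio of these counts was 3.11 (exact conditional interval 1.86 to 5.37). It also takes in the lower level of miR-16 itself in the knockdown library, a ratio of 0.866.

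miR-195, encoded beside miR-497, had 22 knockdown reads and 16 control reads, or 1.84 RPM (1.15 to 2.78) and 1.35 RPM (0.773 to 2.20). Its ratio of 1.36 had an interval of 0.681 to 2.77, and the depth was too low to detect a difference of this size. Together the neighbours miR-195 and miR-497 had 82 and 38 reads, a ratio of 2.13 (1.43 to 3.22).

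miR-15a and miR-15b were near the limit of detection. miR-15a had 11 knockdown reads and 14 control reads, a ratio of 0.776 (0.319 to 1.84), and no difference was detectable. miR-15b had 8 knockdown reads and 1 control read, or 0.668 RPM (0.288 to 1.32) and 0.0845 RPM (0.00214 to 0.471), with a ratio of 7.90 and an interval of 1.06 to 351. Together this pair had 19 and 15 reads, a ratio of 1.25 (0.602 to 2.65). The upper end of the exact Poisson interval of a count of 0 is 0.308 RPM in the knockdown library and 0.312 RPM in the control library, so the single control read of miR-15b lies below the level that a count of 0 allows.

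**Figure D1:**
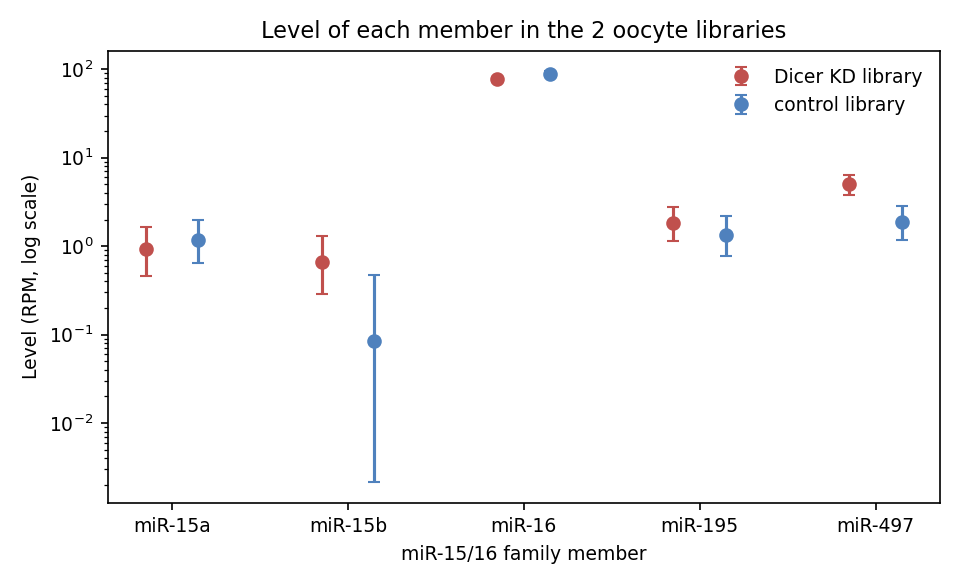
Level of each miR-15/16 family member in RPM (log scale) in the Dicer KD and control libraries. Points are single libraries and bars are exact 95% Poisson intervals. miR-16 stood at 77.4 and 89.3 RPM, and every other member was at 5.01 RPM or less.

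The order of the members was the same in both libraries, miR-16, miR-497, miR-195, miR-15a and miR-15b. In the knockdown library miR-16 and miR-497 each stood clear of the member below, while the intervals of miR-195 (1.15 to 2.78 RPM), miR-15a (0.458 to 1.64 RPM) and miR-15b (0.288 to 1.32 RPM) overlapped from each to the next. In the control library the intervals of miR-497, miR-195 and miR-15a (0.647 to 1.98 RPM) overlapped, and miR-15b lay below that of miR-15a. Adapters ligate to different sequences with unequal efficiency, so this order is one of reads.

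As a sum the family was slightly lower in the knockdown library, at 85.8 RPM (80.6 to 91.2) and 93.8 RPM (88.3 to 99.5), a ratio of 0.915 (0.840 to 0.997). This sum follows miR-16. The sum of the other 4 members went the other way, with 101 knockdown reads and 53 control reads, a ratio of 1.88 (1.34 to 2.68). Of these reads miR-497 alone supplied 60 and 22. The ratio of miR-15a was below 1, at 0.776, and those of miR-195 and miR-15b were above 1. The intervals of miR-15a (0.319 to 1.84) and miR-195 (0.681 to 2.77) took in 1, and miR-15b had 8 and 1 reads. miR-16 thus took 90.2% of family reads in the knockdown library (exact binomial interval 88.2 to 91.9%) and 95.2% in the control library (93.8 to 96.4%). The share of miR-497 was 5.84% (4.48 to 7.45%) and 1.98% (1.25 to 2.99%). Of all reads matched to listed miRNAs, the family held 0.130% (0.122 to 0.138%) in the knockdown library and 0.144% (0.135 to 0.152%) in the control library.

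**Figure D2:**
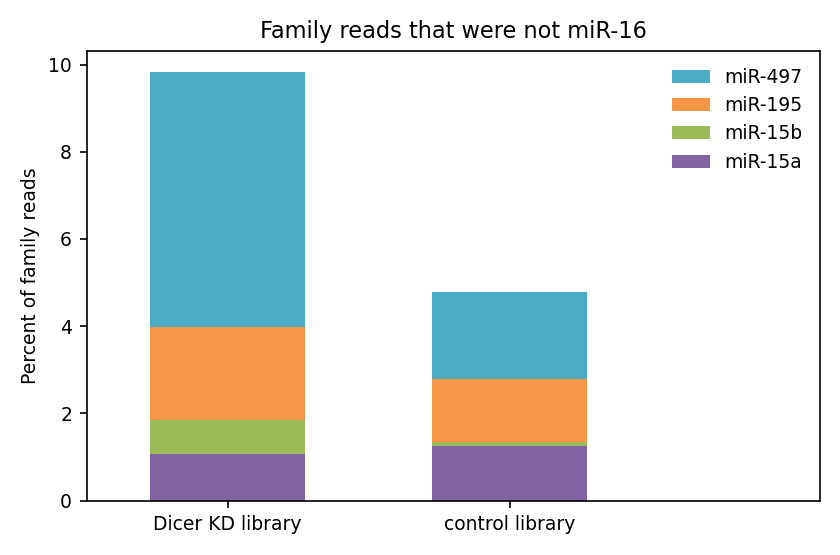
Family reads that were not miR-16, as a percent of all miR-15/16 family reads, stacked by member for the Dicer KD and control libraries. The miR-497 segment was 5.84% in the knockdown library and 1.98% in the control library.

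Differences of the size seen in the family were common among the other miRNAs. A miRNA with 100 or more reads, both libraries summed, was called past 2-fold when its ratio was 2 or more, or 0.5 or less. Of 73 miRNAs with that many reads, 18 were past 2-fold (24.7%) and 17 of these were higher in the knockdown library (23.3%). miR-16 was the 1 member with enough reads, and it was not past 2-fold. Of the 42 miRNAs with 10 to 99 reads, 14 differed by 2-fold or more (33.3%), 13 of them higher in the knockdown library (31.0%). Of the 3 members in that range, miR-15a, miR-195 and miR-497, 1 did, miR-497. The median log2 ratio of the 4 members with at least 10 reads was 0.11, beside 0.28 over all 115 entries with at least 10 reads.

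**Figure D3:**
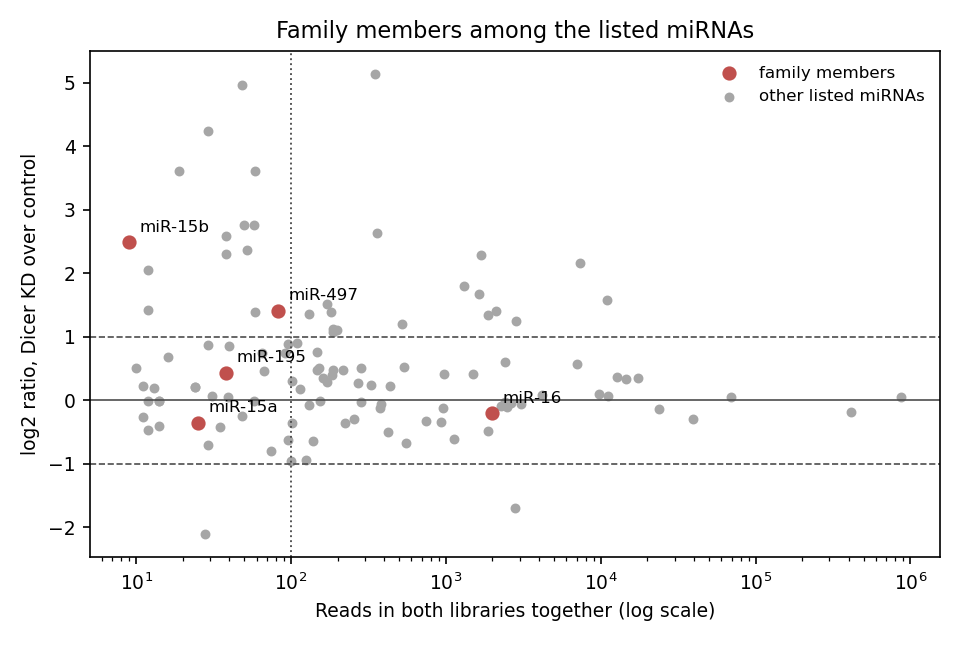
Log2 ratio of Dicer KD over control against the reads in both libraries together (log scale) for the 5 family members (red) and for each other miRNA with at least 10 reads (grey). Dashed lines mark 2-fold and the dotted line 100 reads. miR-16 lies between the dashed lines, and miR-497 and miR-15b lie above the upper one, left of the dotted line.

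The miRNAs nearest to the family sum in log2 ratio, over these 2 libraries, were miR-92a with a ratio of 0.913 (0.890 to 0.936), miR-93 with 0.917 (0.745 to 1.13) and miR-31 with 0.922 (0.810 to 1.05). Those nearest to it in control level were miR-183, at 65.3 RPM in the knockdown library and 91.8 RPM in the control library, miR-26a, at 93.0 and 98.7 RPM, and miR-151-3p, at 99.8 and 101 RPM. The miR-17/92 list, named after another cluster tied to proliferation, summed to a ratio of 0.911 (0.888 to 0.934). However, 11404 of its 11483 knockdown reads and 12344 of its 12457 control reads were miR-92a. Its reads were matched by mature sequence and were not assigned to a gene. miR-92a was the 1 member of that list with 100 reads and was not past 2-fold, while miR-20a, with 5 knockdown and 23 control reads, had a ratio of 0.215 (0.0638 to 0.577). The let-7 list summed to 1.17 (1.15 to 1.20), and 0 of its 7 entries with 100 reads were past 2-fold.

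Lists of miRNAs that mark other cell types also differed in sum between the libraries. These sums came mostly from miR-143, miR-21, miR-486 and miR-205, and the members of a list did not always go the same way. The stromal and vascular list (miR-143, miR-145, miR-199a-3p, miR-126) summed to 126 RPM in the knockdown library and 28.9 RPM in the control library, with 2 of 4 members at 10 reads or more. miR-143 alone had 1411 and 286 reads, and miR-199a-3p had 93 and 54, a ratio of 1.70 (1.20 to 2.43). The endothelial miR-126 had 3 and 2 reads, and miR-145 had 4 and 0. The granulosa list (miR-202-5p, miR-21, miR-212, miR-132, miR-383) summed to 608 and 472 RPM, with 5 of 5 at 10 reads or more. Nearly all of that sum was miR-21, with 7177 and 5476 reads. Of its other members, miR-202-5p had 32 and 6 reads, miR-383 27 and 47, miR-132 45 and 57, and miR-212 7 and 6. The red blood cell list summed to 47.1 and 35.5 RPM, nearly all of it miR-486, while miR-451 had 5 and 7 reads and miR-144 had 0 in both. The epithelial list (miR-200a, miR-200b, miR-200c, miR-141, miR-429, miR-205) summed to 1494 and 1832 RPM, of which miR-205 supplied 17786 of 17899 and 21540 of 21678 reads. miR-141 had 98 and 125 reads, the 3 miR-200 forms 3 to 7 reads each per library, and miR-429 had 0 in both. The part of such cells in the levels of miR-497 and miR-16 was not tested, and in bulk RNA more cells of a type cannot be told apart from more RNA per cell.

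The 5' ends of the family were sharp. All but 1 of the 1028 knockdown reads began at nt 1 of the mature form (99.9%, interval 99.5 to 99.998%), as did 1110 of 1110 control reads. The exception was a single miR-16 read that began 1 nt upstream. The rule admits starts at nt 2 or up to 2 nt upstream, and no read of any member began at nt 2. Of the reads of all other listed miRNAs, 94.5% and 94.2% began at nt 1, and 99.2% and 99.6% without miR-10b and the joint entry of miR-103 and miR-107. Such sharp ends were common miRNA by miRNA. Over the 73 miRNAs with at least 100 reads the median share was 99.7% in the knockdown library and 99.9% in the control library. In the knockdown library 32 of them were above miR-16 and 40 below. In the control library 43 were below miR-16 and the rest equalled its 100%. The 5' end sets the seed, so all family reads but 1 carried the common seed at nt 2 to 8.

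miR-16 was nearly uniform at its 3' end as well, and its leading forms took similar shares of both libraries. Its leading form was the 22-nt read printed above, with 776 knockdown reads and 877 control reads, a ratio of 0.874 (0.792 to 0.964). It was 83.7% of miR-16 reads in the knockdown library (81.2 to 86.0%) and 83.0% in the control library (80.6 to 85.2%). The form 1 nt shorter had 127 and 153 reads, a ratio of 0.820 (0.643 to 1.04), and these 2 forms together held 97.4% in each library. The leading form of each miRNA was chosen by its reads in both libraries together, so it need not lead in each library. Across the 73 miRNAs with at least 100 reads, the leading form held a median of 54.2% in the knockdown library and 57.3% in the control library. In 8 of them this share was above that of miR-16 in the knockdown library, and in 11 in the control library.

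The remaining forms of miR-16 had few reads. The 3 next in order were these.
miR-16, 23 nt, 7 knockdown reads and 8 control reads: tAGCAGCAcgtaaatattggcgt
miR-16, 23 nt, 5 knockdown reads and 1 control read: tAGCAGCAcgtaaatattggcga
miR-16, 19 nt, 0 knockdown reads and 5 control reads: tAGCAGCAcgtaaatattg
Forms longer than 22 nt were 1.83% of miR-16 reads in the knockdown library (1.07 to 2.92%) and 1.51% in the control library (0.868 to 2.45%). The knockdown share includes the read that began 1 nt upstream, which is longer at its 5' end and not at its 3' end. Whether the added bases follow the hairpin or were added later was not analysed here, since no genome was used.

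The less abundant members had other end patterns. miR-15a was mostly cut short of its 22-nt form, which had 0 knockdown reads and 4 control reads. Its leading form was the 20-nt read tAGCAGCAcataatggtttg, with 7 and 4 reads, followed by the 21-nt form with 3 and 4. miR-15b, in contrast, appeared as the 22-nt form alone, with 8 and 1 reads. In miR-195 the 21-nt form had 13 and 10 reads, and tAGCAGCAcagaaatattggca, 1 nt longer, 7 and 5. In miR-497 the 21-nt form had 47 and 16 reads, a ratio of 2.90 (1.62 to 5.48), and cAGCAGCAcactgtggtttgta had 10 and 4. The 20-nt form of miR-497 had 3 and 2, so the point ratio of each of its 3 forms was above 1. The intervals of its 22-nt form (0.712 to 10.8) and 20-nt form (0.170 to 17.7) took in 1. Forms of 1 miRNA in the same libraries are not independent of each other. These counts are low, and shares of forms within a member were not tested between the libraries. In miR-15a, reads shorter than 22 nt were 11 of 11 in the knockdown library (interval 71.5 to 100%). They were 8 of 14 in the control library (28.9 to 82.3%), and these intervals overlap.

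**Figure D4:**
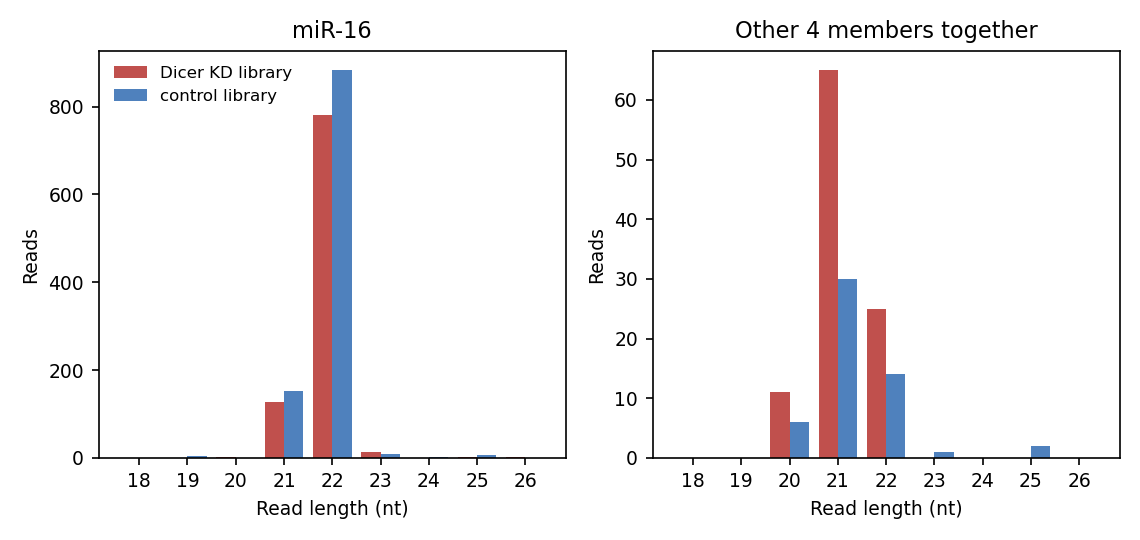
Reads by length, 18 to 26 nt, for miR-16 (left panel) and for the other 4 members together (right panel) in the Dicer KD and control libraries. miR-16 peaks at 22 nt with 781 and 883 reads and has a shoulder at 21 nt with 127 and 153, and the other members lie mainly at 20 to 22 nt.

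Reads of 18 or 19 nt were 0 of 1028 in the knockdown library (interval up to 0.358%) and 5 of 1110 in the control library, 0.450% (0.146 to 1.05%). In the other listed miRNAs such reads made up 2.20% in the knockdown library (2.17 to 2.24%) and 0.817% in the control library (0.797 to 0.837%). Without miR-10b and the joint entry of miR-103 and miR-107 the shares were 1.16% (1.12 to 1.20%) and 0.897% (0.865 to 0.929%). The family's interval lay below both of these shares in the knockdown library and took in both in the control library. Such a low share was common miRNA by miRNA: 23 of the 73 miRNAs with at least 100 reads had no read of 18 or 19 nt in the knockdown library, miR-16 among them. In the control library 32 had none, and the median of 0.204% was below the 0.473% of miR-16.

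The passenger strands were not detected, and the more distant relatives had few reads. No read in either library matched the 3p form of miR-15a, miR-15b, miR-195 or miR-497, or either 3p form of miR-16, against 1028 and 1110 reads of the 5p forms. A count of 0 allows each of them the levels given above. The 3p sequences searched were not checked against a reference, so a form that differs from them in nt 2 to 18, or an error in them, would have been missed. Of the other miRNAs with the same nt 2 to 7, miR-424 had 2 knockdown reads and 4 control reads and miR-503 had 0 in both.

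Nearly every read of 18 to 26 nt with the family seed at nt 2 to 8 was a member. There were 1075 such reads in the knockdown library and 1162 in the control library, and members made up 95.5% in each (94.1 to 96.7% and 94.2 to 96.6%). Reads 1 mismatch from a member at nt 9 to 18 were 4 and 5, or 0.388% (0.106 to 0.989%) and 0.448% (0.146 to 1.04%) of exact and mismatched family reads. The commonest was T15A in miR-16, with 0 and 3 reads. Reads with the seed that matched no listed miRNA were 42 in each library.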

How the data were processed

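Small RNA from 1 Dicer KD and 1 control oocyte library was, per the labels' protocols, ligated to adapters, reverse transcribed, amplified by PCR and sequenced (Illumina). For each library the authors deposited a table of distinct sequences of 18 to 44 nt with their lengths and raw read counts. The submitters' processing notes list Bowtie2; its version, role and genome build are not given in the sources used here.

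Reads were matched with Python 3.11.15 to nt 2 to 18 of 187 conserved mature miRNAs, written from background knowledge because no table of pig miRNAs was used; entries alike over that stretch were joined, which left 181. These entries were not checked against a reference, and an error in one could lose its reads or give it those of another RNA. All printed sequences are reads from the deposited tables. Named miRNAs were the members, their 3p forms, miRNAs with the same nt 2 to 7, the lists above, the 5 leading forms per member, and the 3 miRNAs nearest in ratio and in level. Members and lists were chosen with earlier results of these data known. Log2 ratios had 0.5 reads added to each count, and ratios had none. Intervals are exact (scipy 1.17.1). Of 181 simulated entries with planted counts all 181 were recovered, and 165 of the 176 intervals tested held the true ratio. The planted reads were built from the same entries and drawn as independent counts. They check the counting, and cannot check the entries or the effect of PCR copies. Alternatives varied the total, the match, the length window, the 5' end and read minimums.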

Additional observations from a re-analysis of the deposited data

How the results depend on the processing

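The family ratio kept its direction under 8 of 8 alternatives, from 0.906 relative to all matched miRNA reads to 0.945 relative to reads of 18 to 26 nt, where its interval (0.867 to 1.03) took in 1. It also did for a match over nt 2 to 20 (0.842 to 1.0003) and for reads of 20 to 24 nt (0.846 to 1.005). The ratio of miR-16 ran from 0.858 to 0.895 and that of miR-497 from 2.67 to 2.78. With at least 100 reads 18 of 73 miRNAs were past 2-fold, and with at least 50 reads 24 of 86, miR-497 then among them. At a minimum of 500 reads 10 of 38 were past 2-fold, and at a minimum of 1 read 52 of 144. Fewer or more miRNAs enter at each minimum. Without sequences of a single read, 100% of knockdown family reads began at nt 1. Depth limits miR-15a, miR-15b and miR-195, which had 25, 9 and 38 reads in both libraries together. No paired analysis was possible because each group has 1 library and the result comes from no test.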

Other observations

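Reads that carried the family seed at nt 2 to 8 but matched no listed miRNA were led by these sequences, whose origin was not analysed here.
First, 20 nt, 2 knockdown reads and 9 control reads: tAGCAGCAgctgggactact
Second, 23 nt, 8 knockdown reads and 2 control reads: tAGCAGCAgctgggactactact
Both begin with the same 20 bases, and together they had 10 knockdown reads and 11 control reads.

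A 20-nt read, tAGCAGCAcgtaaattggcg, which starts and ends like miR-16 and lacks bases in between, had 2 knockdown reads and 3 control reads. Reads of 27 to 44 nt that held a member at their 5' end were 1 in the knockdown library and 3 in the control library.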
